A study of Mus musculus with 24 samples.

Results

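Hippocampal CA field genes are genes whose transcripts mark the cornu ammonis (CA) fields of the hippocampus or their pyramidal neurons. Here they are 10 genes chosen by name, Pou3f1, Wfs1, Fibcd1, Spink8, Pcp4, Amigo2, Rgs14, Bok, Zbtb20 and Lefty1, read by every probe set whose only annotated symbol is 1 of them. That gave 20 probe sets of the 45037 tested, and 10 of 18193 named genes. Zbtb20 had 9 probe sets, Pou3f1 and Amigo2 had 2 each, and the other 7 genes 1 each. The members were named with earlier results of these arrays known, although the rule itself used no measured value.

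The samples were hippocampus and amygdala of male mice from lines bred for how long they freeze in contextual fear conditioning, in which a mouse is returned to a chamber where it was shocked. There were 24 arrays in 4 groups of 6: hippocampus of the high freezing line (line 25) and of the low freezing line (line 24), then amygdala of the high line and of the low line. The high line was on arrays 7 to 12 of each tissue and the low line on arrays 1 to 6. Each is 1 breeding line, the labels give no age or treatment, and they leave unsaid whether RNA was pooled and whether arrays with the same number came from 1 mouse. The p-values therefore measure the spread between arrays, which may be technical, and a difference made by selection cannot be told apart from drift between the lines. In whole tissue, fewer cells of a type and less RNA per cell cannot be told apart.

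The CA fields are successive stations of the hippocampal circuit. CA3 pyramidal neurons receive mossy fibres from the dentate gyrus and project to CA1, the main output field, while CA2 is a small field between them. Pyramidal neurons of each field express their own sets of genes. CA1 is marked by Pou3f1, a POU-domain transcription factor, by Wfs1, the endoplasmic reticulum protein wolframin, by Fibcd1, a membrane receptor with a fibrinogen-like domain that binds chitin, and by Spink8, a Kazal-type protease inhibitor. CA2 is marked by Pcp4, a small calmodulin-binding peptide, by Amigo2, a leucine-rich-repeat adhesion protein, and by Rgs14, a regulator of G-protein signalling that restrains synaptic plasticity in that field. Bok, a Bcl-2 family member, is a CA3 marker. Zbtb20 is a zinc-finger repressor that specifies hippocampal projection neurons. Lefty1, a secreted antagonist of Nodal signalling, is assigned to no single field here.

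Each value is the authors' linear signal of a probe set, and differences are on the scale log2(signal + 16), which understates changes of dim probe sets. A probe set is called where the Benjamini-Hochberg adjusted p of limma's test over all 45037 probe sets is under 0.05. Array medians lay between 43.3 and 55.7 in linear signal. The array's 5′ control for small-subunit ribosomal RNA, which reads RNA or label preparation, ran from 3600 to 5799.9 on hippocampus arrays of the high line and from 5859 to 7093 on those of the low line, against 324 to 1525 on amygdala arrays of the high line and 295 to 1148 on those of the low line. It separated the tissues, and in hippocampus the lines, so preparation and group cannot be told apart in those 2 comparisons. Hippocampus array 7 stood apart from the other 11 in a principal component analysis, and amygdala arrays 7 and 8, of the high line, had the lowest actin 5′ to 3′ ratios, down to 0.301. Genes of both tissues were set beside the labels, but neither list is an independent check of them. Of 10 dentate gyrus genes, listed with earlier results of these arrays known, 8 were called higher in hippocampus (12.9% of all probe sets). Amygdala genes were listed with the data already seen, so their calls cannot test the labels. Of the 4 measured, 3 (Foxp2, Meis2 and Cyp26b1) were called lower in hippocampus (12.9% of all probe sets) while Rspo2 was not called.

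Every one of the 10 genes was called between the tissues by its brightest probe set, and 8 of them were higher in hippocampus. Lefty1, Pou3f1, Fibcd1 and Zbtb20 had the largest differences, between 3.43-fold and 7.24-fold. Wfs1 and Pcp4 went the other way and were 1.88-fold and 2.23-fold lower in hippocampus than in amygdala. Over all probe sets of the members 19 of 20 were called, 17 higher and 2 lower, where the whole array had 25.8% called in either direction, 12.9% higher and 12.9% lower. The arrays of the 2 tissues did not overlap for 17 of the 20, against 4.91% of all probe sets. All 9 Zbtb20 probe sets are in both counts, so 1 gene makes up a large part of them. By gene, the median difference was 0.84, beside 0.02 over all probe sets.

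**Figure D1:**
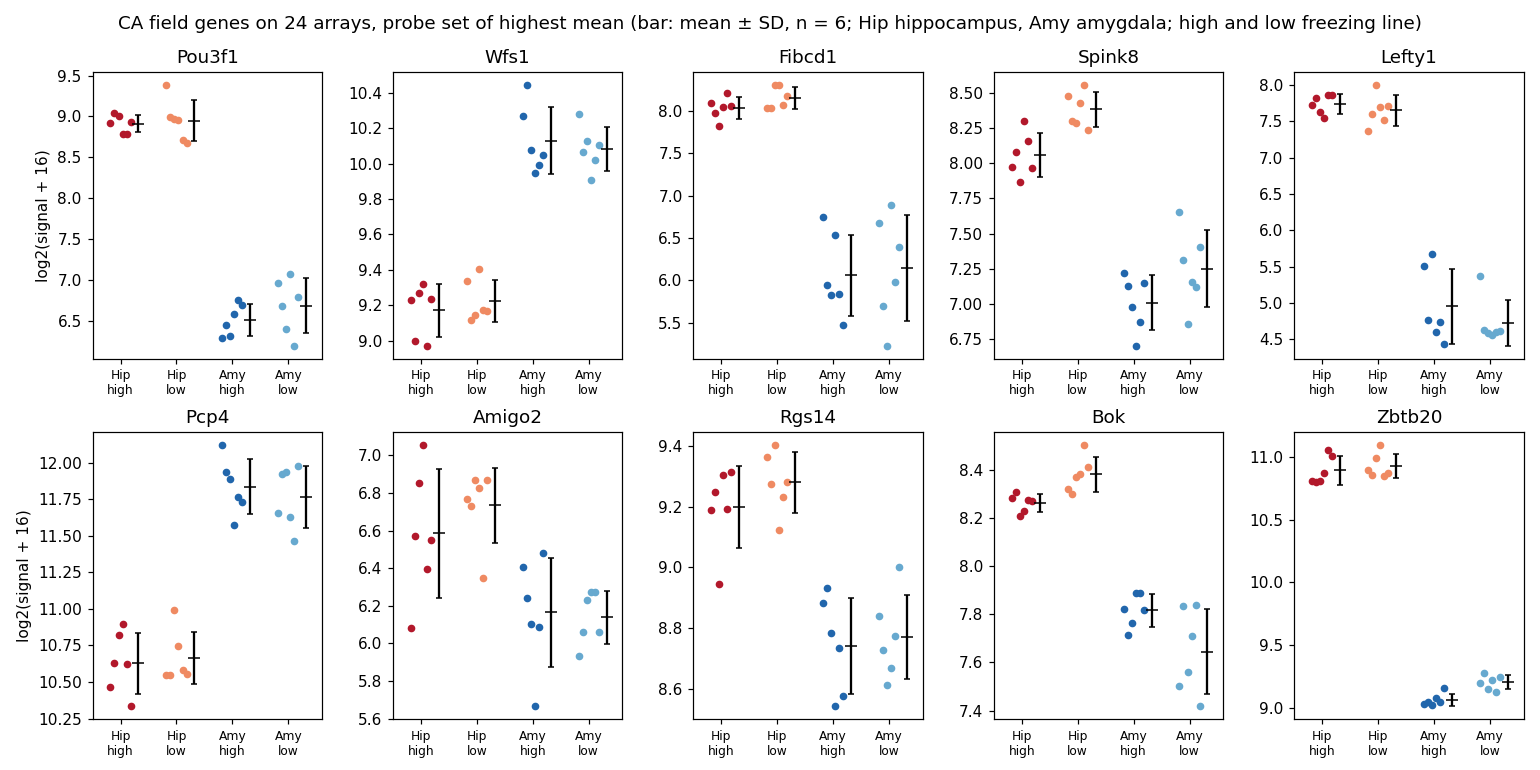
Signal of the 10 genes on each of the 24 arrays, as log2(signal + 16) of the probe set with the highest mean, by tissue (Hip hippocampus, Amy amygdala) and freezing line, with the mean and SD of 6 arrays per group beside the points. For 8 genes the hippocampus groups lie higher, for Wfs1 and Pcp4 the amygdala groups do, and within a tissue the lines overlap in every panel.

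Among the CA1 genes, Pou3f1 separated the tissues most widely. On hippocampus arrays its brighter probe set read 426, 470.4 and 511 (lowest, median and highest signal) in the high line and 394, 481 and 653 in the low line. On amygdala arrays the same values were 62.4, 75.8 and 92.2 in the high line and 57.5, 91.1 and 119 in the low line. The lowest hippocampus array thus lay more than 3-fold above the highest amygdala array, and the lines of a tissue overlapped. The difference was 2.33 ± 0.10 (SE, n = 12 arrays per tissue, 5.02-fold, limma adjusted p = 4.57e-15). Its dimmer probe set was also called, at 2.02 ± 0.15, but its size rests on the offset: it was 2.80 with log2(signal + 1) and 1.18 with log2(signal + 64).

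Fibcd1 varied less between hippocampus arrays than between amygdala arrays, where its signal was dim. It read 209, 249 and 281 in hippocampus of the high line and 246, 262 and 301 in that of the low line. In amygdala it read 28.6, 43.5 and 91.3 in the high line and 21.5, 57.6 and 102 in the low line. Every hippocampus array was above every amygdala array. The highest amygdala values were on arrays 4 and 1 of the low line and 7 and 10 of the high line, so the spread ran through both lines. The SD within lines was 0.13 in hippocampus and 0.56 in amygdala on the log2 scale, where the median probe set of the array had 0.27 and 0.24. Among the members the hippocampus SD ran from 0.057 (Bok) to 0.28 (Amigo2), so that of Fibcd1 was not unusual. The Fibcd1 tissue difference was 1.99 ± 0.16 (3.98-fold, adjusted p = 5.91e-10), and 1.44 with log2(signal + 64).

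Spink8 was the CA1 member with the smallest hippocampal excess. Its signals were 218, 245 and 299 in hippocampus of the high line and 286, 314 and 360.4 in hippocampus of the low line. The amygdala arrays read 88.2, 117 and 133 in the high line and 100.1, 135 and 186 in the low line. The tissues did not overlap, with a difference of 1.09 ± 0.08 (2.13-fold, adjusted p = 1.79e-10).

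Wfs1, although a CA1 marker, was lower in hippocampus. Its signals there were 486, 585 and 624 in the high line and 538, 560.3 and 662 in the low line. In amygdala they were 969.9, 1055 and 1378 in the high line and 944, 1072 and 1225 in the low line. No hippocampus array reached the lowest amygdala array, and the difference was -0.91 ± 0.06 (adjusted p = 8.02e-11). Wfs1 is known to be expressed also in the central amygdala and the striatum.

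The CA2 genes also went both ways. Pcp4 was lower in hippocampus: 1276, 1564 and 1888 in the high line and 1483, 1502 and 2025 in the low line. Amygdala arrays read 3037, 3613 and 4434 in the high line and 2812, 3543 and 4006 in the low line. The tissues did not overlap (difference -1.15 ± 0.08, adjusted p = 7.57e-11). Pcp4 is abundant in striatal neurons as well as in CA2.

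Rgs14 was higher in hippocampus by a small amount, with overlapping tissues. It read 477, 581 and 621 in hippocampus of the high line and 542, 604 and 660.5 in that of the low line, against 357, 418 and 472 in amygdala of the high line and 375, 415 and 497 in amygdala of the low line. Only the lowest hippocampus array, array 9 of the high line at 477, lay below the highest amygdala array. The difference was 0.48 ± 0.06 (1.40-fold, adjusted p = 9.51e-07).

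Amigo2 was dim and gave the least certain tissue difference. Its brighter probe set read 51.7, 78.4 and 117 in hippocampus of the high line and 65.4, 95.1 and 101 in that of the low line. Amygdala arrays read 34.8, 56.3 and 73.2 in the high line and 45.01, 54.97 and 61.4 in the low line, so the tissues overlapped. The difference was 0.51 ± 0.10 (1.42-fold, adjusted p = 5.03e-04). The other Amigo2 probe set lay at the 16.8th percentile of mean signal and was the 1 of 20 not called, at 0.02 ± 0.21 (95% interval -0.40 to 0.45, adjusted p = 0.955).

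Bok, the CA3 marker, had the smallest spread of the 10 genes in hippocampus, with an SD within lines of 0.057. It read 279.8, 293 and 301 in hippocampus of the high line and 299.8, 316 and 347 in hippocampus of the low line. In amygdala it read 194, 210.0 and 221 in the high line and 155, 183 and 213 in the low line. All hippocampus arrays exceeded all amygdala arrays, by 0.59 ± 0.05 on average (1.51-fold, adjusted p = 1.83e-09).

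Zbtb20 was the member seen by the most probe sets, and all 9 were called higher in hippocampus with no overlap between the tissues. Their differences ran from 1.48 to 2.29, or 2.79-fold to 4.91-fold. The brightest read 1772, 1819 and 2117 in hippocampus of the high line and 1831, 1873 and 2169.7 in that of the low line. Its amygdala signals were 505, 512 and 554 in the high line and 543, 576 and 605 in the low line. With a difference of 1.78 ± 0.04 it had the lowest p of the members (3.43-fold, adjusted p = 1.64e-18).

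**Figure D2:**
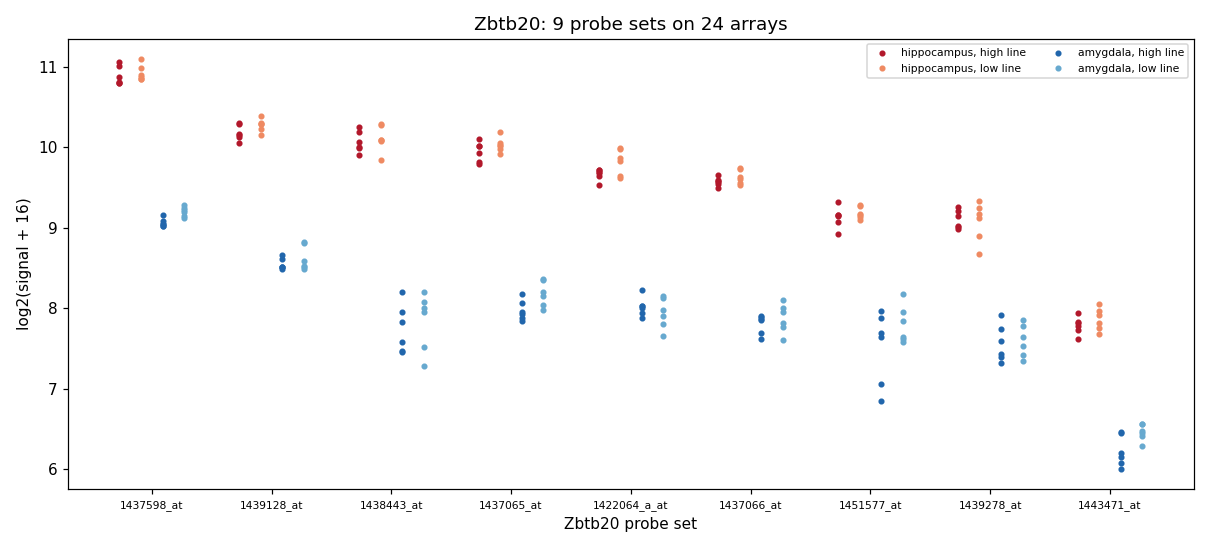
The 9 Zbtb20 probe sets, in order of mean signal along the x axis, with 1 point per array as log2(signal + 16) and 1 colour for each of the 4 groups of 6. In each probe set all 12 hippocampus points lie above all 12 amygdala points.

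Lefty1, the secreted Nodal antagonist, had low signals on all amygdala arrays. In hippocampus it read 171, 202 and 217 in the high line and 149, 185 and 240.0 in the low line. In amygdala it read 5.61, 10.8 and 35.02 in the high line and 7.50, 8.38 and 25.2 in the low line. Of the amygdala arrays, arrays 7 and 9 of the high line and array 1 of the low line were above the other 9, and all 12 were below every hippocampus array. The difference of 2.86 ± 0.13 (7.24-fold, adjusted p = 2.07e-14) was the largest of the 20 on this scale. It moves with the offset, from 1.72 with log2(signal + 64), where Pou3f1 (1.88) and 2 Zbtb20 probe sets (2.07 and 1.74) were above it, to 3.93 with log2(signal + 1).

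**Figure D3:**
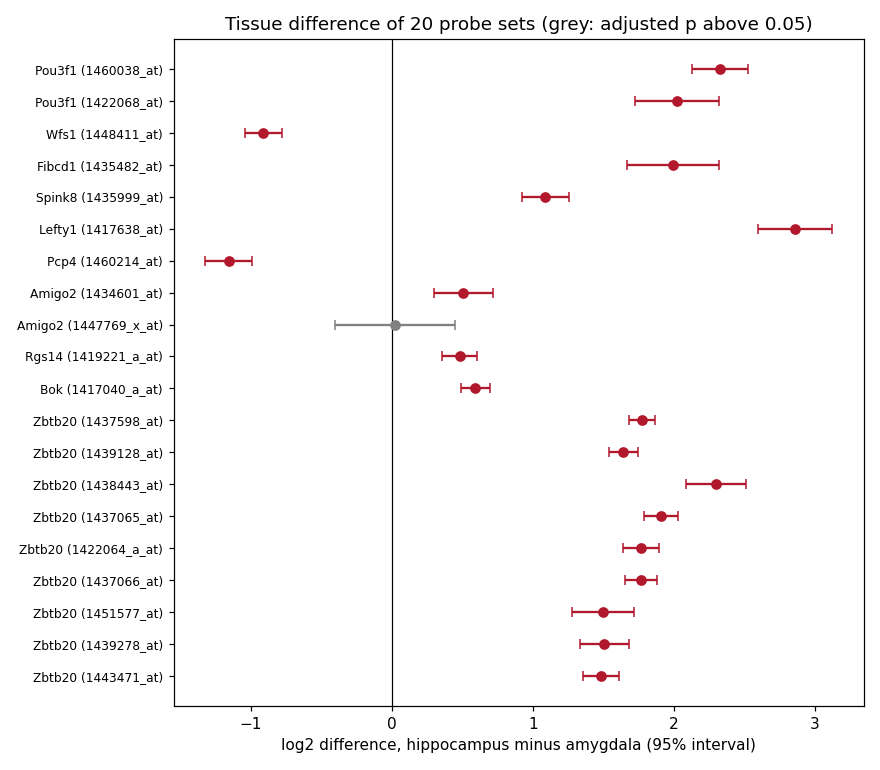
Difference between the tissues, hippocampus minus amygdala, of the 20 probe sets on the log2(signal + 16) scale with 95% intervals from limma. Values right of 0 are higher in hippocampus; Wfs1 and Pcp4 lie left of it, and the dimmer Amigo2 probe set, in grey, covers 0.

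Promoter sequences, 250 bases before to 50 after an annotated start, were at hand for 6 of the 10 genes (RefSeq, GRCm38.p6). The windows below belong to the 2 higher genes Zbtb20 and Fibcd1 and to the 2 genes lower in hippocampus, Wfs1 and Pcp4, as examples from each direction. They run 5′ to 3′ on the gene's strand, and capitals mark GC boxes (GGGCGG, or CCGCCC on the other strand).
Zbtb20, chr16:43247034-43247333, plus strand: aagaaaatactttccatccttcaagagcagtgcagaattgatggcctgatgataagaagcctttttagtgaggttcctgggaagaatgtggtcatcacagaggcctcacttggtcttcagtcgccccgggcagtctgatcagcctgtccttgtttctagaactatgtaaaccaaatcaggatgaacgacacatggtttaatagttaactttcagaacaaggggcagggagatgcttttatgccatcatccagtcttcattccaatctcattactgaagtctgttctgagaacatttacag
Fibcd1, chr2:31845956-31846255, minus strand: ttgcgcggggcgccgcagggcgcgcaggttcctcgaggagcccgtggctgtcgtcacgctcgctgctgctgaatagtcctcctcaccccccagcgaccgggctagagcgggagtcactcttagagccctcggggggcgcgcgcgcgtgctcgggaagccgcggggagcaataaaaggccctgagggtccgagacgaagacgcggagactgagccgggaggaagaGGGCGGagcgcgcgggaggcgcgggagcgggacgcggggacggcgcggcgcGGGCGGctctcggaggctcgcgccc
Wfs1, chr5:36988933-36989232, minus strand: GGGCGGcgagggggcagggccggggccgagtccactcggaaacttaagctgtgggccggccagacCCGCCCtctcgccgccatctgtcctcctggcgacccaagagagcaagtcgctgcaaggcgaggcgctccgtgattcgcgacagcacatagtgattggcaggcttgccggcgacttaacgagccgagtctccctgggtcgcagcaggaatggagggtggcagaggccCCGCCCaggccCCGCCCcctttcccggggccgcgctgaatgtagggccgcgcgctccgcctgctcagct
Pcp4, chr16:96467356-96467655, plus strand: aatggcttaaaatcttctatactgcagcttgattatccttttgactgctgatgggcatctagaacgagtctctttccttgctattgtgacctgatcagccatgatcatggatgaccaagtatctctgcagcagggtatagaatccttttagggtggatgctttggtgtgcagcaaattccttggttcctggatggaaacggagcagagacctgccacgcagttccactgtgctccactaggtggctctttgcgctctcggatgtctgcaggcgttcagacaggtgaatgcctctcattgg

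The Zbtb20 and Fibcd1 windows lie at starts inside the spans that the reference table gives these genes. In these windows the GC content was 43.3% for Zbtb20 and 74.3% for Fibcd1, and 70.0% for Wfs1 and 48.7% for Pcp4. The other 2 windows, of Amigo2 and Bok, both higher in hippocampus, had 83.3% and 56.3%. The median over all promoters in the table was 52.7%. Of the 4 higher genes with a window 3 lay above it and 1 below, and of the 2 lower genes 1 lay above and 1 below. GC boxes numbered 0 in Zbtb20, 2 in Fibcd1, 4 in Wfs1 and 0 in Pcp4, with 5 in Amigo2 and 1 in Bok, where 35.6% of 32817 promoters of this length hold at least 1. The octamer ATTTGCAT, the classical site of POU factors, found in 1.74% of all promoters, was in none of the 6 windows on either strand, nor were TATAAA (13.6% of promoters) and the cyclic AMP response element TGACGTCA (1.79%). A missing match says only that these letters are not in the window.

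Other genes of the same fields were measured beside the members. Over all probe sets 12.9% were called higher in hippocampus and 12.9% lower. Of 6 further CA1 genes 5 were measured, and all 5 were called higher in hippocampus, among them Gpr161, an orphan receptor of primary cilia (1.45), and Mpped1 (1.14). Of 6 measured CA2 genes 0 were called higher and 3 lower, namely Necab2, a neuronal calcium-binding protein (-0.79), Cacng5, an auxiliary AMPA receptor subunit (-0.69), and Ccdc3 (-0.52). Of 11 CA3 genes 8 were called higher, such as the zinc-finger gene St18 (2.16) and the kainate receptor subunit gene Grik4 (0.89), and 3 lower, with Coch at -1.10. Dentate gyrus genes were called higher for 8 of 10, with the desmosome gene Dsp at 3.83 and the granule cell transcription factor gene Prox1 at 2.00. The 1 dentate gyrus gene called lower was Calb1 (-0.36), named after its value was seen.

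Markers of several other cells and regions also differed between the tissues. Over all probe sets 12.9% were called higher in hippocampus and 12.9% lower. All 5 measured striatum markers (Drd1, Drd2, Ppp1r1b, Gpr6 and Rgs9) were lower in hippocampus, where their summed linear signal was 269 to 365 in the high line and 239.7 to 312 in the low line, against 1169 to 2266 in amygdala of the high line and 1118 to 2404 in amygdala of the low line. The 3 excitatory neuron markers (Slc17a7, Neurod6 and Camk2a) were all higher in hippocampus, with sums of 5695 to 6849.9 in the high line and 6149.9 to 7282 in the low line, against 2844 to 4032 in amygdala of the high line and 2830.2 to 3362 in amygdala of the low line. Oligodendrocyte markers were called higher for 4 of 4, with sums of 10475.8 to 14067 in hippocampus of the high line and 10979 to 13352 in that of the low line, against 8169 to 9799 in amygdala of the high line and 8160.9 to 9324 in amygdala of the low line. Fibroblast and meninges markers were called higher for 4 of 5, with sums of 1695 to 2076 in hippocampus of the high line and 1220.7 to 1700.6 in that of the low line, against 478 to 922 in amygdala of the high line and 619 to 1139.8 in amygdala of the low line. Interneuron markers were called higher for 1 and lower for 3 of 5, with sums of 4879.8 to 5809.7 in hippocampus of the high line and 5017 to 5735 in that of the low line, against 7795 to 8849.9 in amygdala of the high line and 7513 to 8264 in amygdala of the low line. Astrocyte markers were called higher for 3 and lower for 2 of 5. Their sums were 6805 to 7440 in hippocampus of the high line and 6664 to 7268 in that of the low line. In amygdala they were 5584 to 6168 in the high line and 5444 to 5991 in the low line. All these sums did not overlap between the tissues. Choroid plexus markers were called higher for 1 of 4, microglia markers lower for 1 of 5, thalamus markers lower for 1 of 4, and endothelial markers for 0 of 3. These last counts are near or below the 25.8% of all probe sets called in either direction. The part of all the cells above in the members' tissue differences was not tested.

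Between the lines no member was called in hippocampus. Of the 20 probe sets 0 passed limma's adjusted p, where 0.0222% of all probe sets did, and 1 had an unadjusted p under 0.05, where 8.97% did. Of the 20 probe sets 16 had a negative difference, high minus low, with 44.3% negative over all probe sets. By gene, 9 of 10 differences were negative, but they were small: the median was -0.07, against 0.02 over all probe sets. The values over all probe sets include dim ones and were not taken at like signal. Adjusted p by gene ran from 0.362 to 0.955, and the arrays of the lines overlapped for all 20 probe sets, as against 0.637% of all probe sets without overlap.

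Spink8 was the 1 probe set at an unadjusted p under 0.05. Its difference in hippocampus was -0.32 ± 0.09 (95% interval -0.52 to -0.13, limma adjusted p = 0.362). Array 10 of the high line, at 299, lay above arrays 3 and 6 of the low line, at 297 and 286, and the other 5 high-line arrays lay below all 6 of the low line. In amygdala Spink8 had the same sign, at -0.24 ± 0.13 (interval -0.53 to 0.05, adjusted p = 0.799). The ribosomal RNA control ran the same way in hippocampus, lower in the high line; its part was not tested.

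The other CA1 genes had intervals around 0 in hippocampus. Fibcd1 was at -0.12 ± 0.09 (interval -0.31 to 0.07), Wfs1 at -0.05 ± 0.09 (-0.24 to 0.14) and Pou3f1 at -0.04 ± 0.11 (-0.28 to 0.21). The dimmer Pou3f1 probe set had the opposite sign, 0.04 ± 0.09. For Wfs1 and Pou3f1 no bound of these intervals is larger than 0.28 in size.

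CA2 genes gave like values. Amigo2 was at -0.15 ± 0.15 (interval -0.48 to 0.18), Rgs14 at -0.08 ± 0.08 (-0.26 to 0.10) and Pcp4 at -0.04 ± 0.11 (-0.28 to 0.21). Rgs14, which limits plasticity in CA2, had mean signals of 9.20 ± 0.14 in the high line and 9.28 ± 0.10 in the low line (SD of log2 values, n = 6 each), within the spread of the arrays.

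In Bok the lines overlapped by little in hippocampus. The high-line arrays ended at 301.4 and those of the low line began at 299.8, so a single array of each line crossed. The difference was -0.12 ± 0.06 (interval -0.25 to 0.01, limma adjusted p = 0.610). Zbtb20 had 8 of 9 probe sets negative, between -0.15 and 0.03, with -0.03 ± 0.08 on the brightest. Lefty1 was the 1 gene with a positive value, 0.09 ± 0.11 (-0.14 to 0.32).

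**Figure D4:**
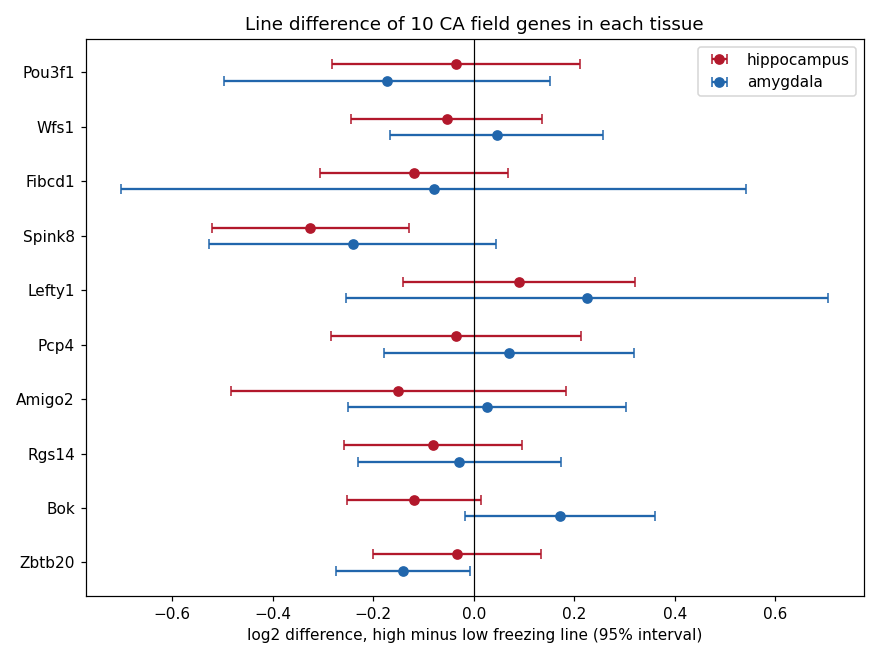
Difference between the lines, high minus low, of the brightest probe set of each gene in hippocampus and in amygdala, on the log2(signal + 16) scale with 95% intervals from limma. The hippocampus interval of Spink8 and the amygdala interval of Zbtb20 leave out 0, both with adjusted p above 0.05, and the other intervals cover 0.

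In amygdala 0 of 20 probe sets were called between the lines (0.00222% of all), and 3 had an unadjusted p under 0.05 (6.54% of all). Lines without overlap were seen for 0 of the 20, and for 0.402% of all probe sets. All 3 belonged to Zbtb20. The brightest was at -0.14 ± 0.06 (interval -0.27 to -0.01, adjusted p = 0.744 in limma), and its arrays overlapped only in that array 12 of the high line, at 554, exceeded arrays 3 and 5 of the low line, at 553 and 543. The other 2 were at -0.21 ± 0.09 and -0.24 ± 0.09. Of the 9 Zbtb20 probe sets 8 were negative here too, and the exception, at 0.08, was not the one that was positive in hippocampus. Of the 20 probe sets 12 had a negative difference, with 51.9% negative over all probe sets. Over the 10 genes 5 differences were negative and 5 positive. Fibcd1 and Lefty1, the members with the widest amygdala spread, had intervals of -0.70 to 0.54 and -0.25 to 0.71.

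The line effect was compared between the tissues in a model of all 24 arrays. For this difference 0 of 20 probe sets were called, as was 0% of all, and 1 had an unadjusted p under 0.05, against 7.08% of all. That probe set was Bok, with a line difference of -0.12 in hippocampus and 0.17 ± 0.09 in amygdala, which gives -0.29 ± 0.10 (interval -0.50 to -0.08, limma adjusted p = 0.594). The 32 further genes measured of the CA1, CA2, CA3 and dentate gyrus lists gave 0 limma calls between the lines in either tissue, with 6 at an unadjusted p under 0.05 in hippocampus (8.97% of all probe sets) and 3 in amygdala (6.54% of all). Their lowest p values in limma's hippocampus test belonged to the dentate genes C1ql2 (-0.94 ± 0.15, adjusted p = 0.0754), Lct (-0.34 ± 0.10, adjusted p = 0.376) and Dsp (-0.36 ± 0.11, adjusted p = 0.403). In CA1 they belonged to Mpped1 (0.18 ± 0.07, adjusted p = 0.470), Itpka (-0.24 ± 0.09, adjusted p = 0.500) and Gpr161 (-0.18 ± 0.08, adjusted p = 0.536). Mpped1 had the opposite sign to Spink8, and Itpka and Gpr161 the same sign.

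Covariation between hippocampus arrays was read from deviations of each gene's brightest probe set from its line mean, over 12 arrays. All 45 pairs of the 10 genes were tested in each tissue by permuting arrays within lines, two-sided, with adjustment over the 90 relations. In hippocampus 0 of 45 pairs passed (lowest adjusted p = 0.502 for Pearson's r and 0.470 for Spearman's rho), and 3 had an unadjusted p under 0.05 for Pearson's r. Without hippocampus array 7, which stood apart, the lowest adjusted p was 0.0945, for Fibcd1 and Zbtb20 (r = 0.85, permutation test). Positive r made up 27 of 45, the median was 0.09 and the range ran from -0.56 to 0.75. In hippocampus 16 pairs had the same sign in both lines, and in amygdala 21 of 45 did. How many would do so by chance was not tested. For comparison, a member's median r with all other probe sets in hippocampus ran from -0.07 (Zbtb20) to 0.05 (Bok). With probe sets of mean log2 signal of at least 8 it ran from -0.03 (Bok) to 0.10 (Zbtb20). In amygdala 0 of 45 passed as well, 5 had an unadjusted p under 0.05, 25 were positive and the median was 0.05. By chance alone a share of about 0.05 of pairs has an unadjusted p under 0.05.

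**Figure D5:**
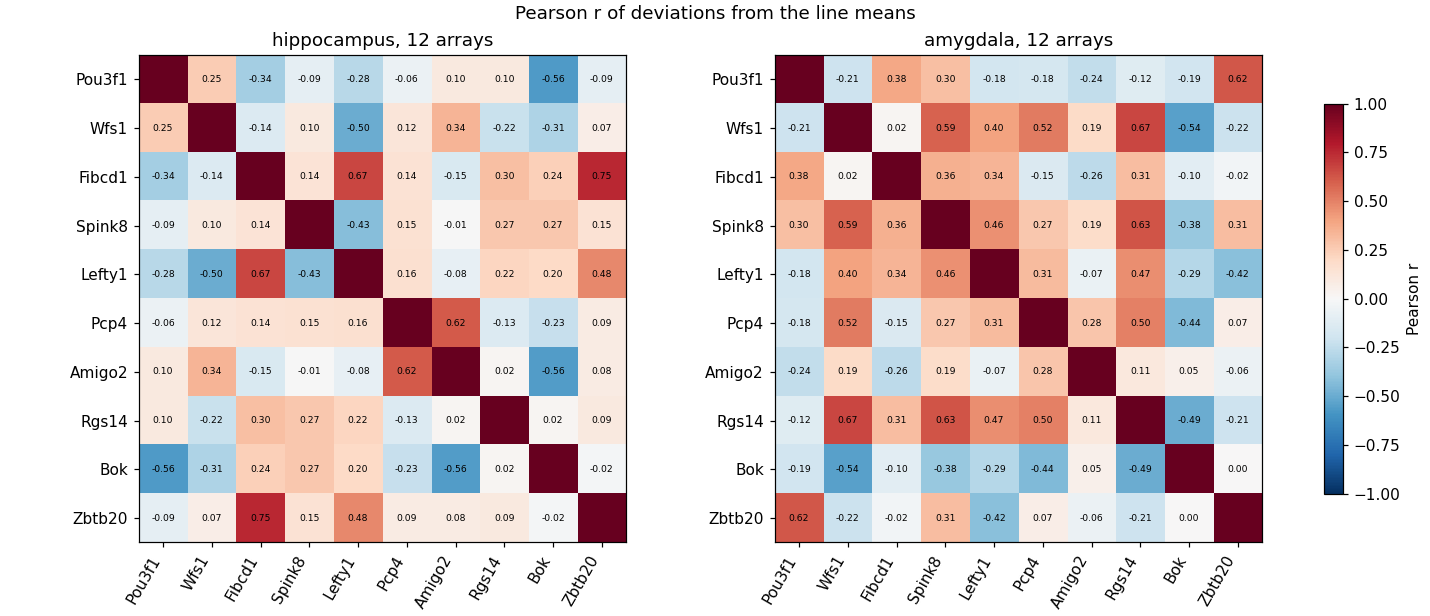
Pearson's r between the 10 genes over the 12 hippocampus arrays and the 12 amygdala arrays, from deviations from line means, with colour from blue (negative) to red (positive). The highest off-diagonal value in hippocampus is 0.75, for Fibcd1 and Zbtb20, and it is -0.02 in amygdala.

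Pairs from the same field had low correlations in hippocampus, with 1 exception. The 6 pairs within CA1 had a median r of 0.01, from -0.34 to 0.25, and 3 were positive. The 3 pairs within CA2 had a median of 0.02, the highest being Pcp4 with Amigo2 at 0.62. The 36 remaining pairs had a median of 0.09. In amygdala the medians were 0.33 within CA1, 0.28 within CA2 and -0.04 for the others. Whether these medians differ was not tested.

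The 3 hippocampus pairs under an unadjusted 0.05 for Pearson's r are given as values that did not pass. Fibcd1 and Zbtb20 had r = 0.75 (permutation p = 0.00665, adjusted 0.502) and rho = 0.61 (permutation p = 0.0418, adjusted 0.470). Within the high line r was 0.67 and within the low line 0.85, and without the 2 arrays farthest from the Fibcd1 median it was 0.67. All these values use the brightest of the 9 Zbtb20 probe sets. Those 9 correlated with each other between -0.31 and 0.78 in hippocampus, and Fibcd1 was not tested against the rest of them. Fibcd1 and Lefty1 had r = 0.67 (permutation p = 0.0185, adjusted 0.502) and rho = 0.72 (p = 0.01305, adjusted 0.470), with 0.51 in the high line, 0.81 in the low line and 0.67 without the 2 farthest arrays. Arrays 3 of the low line and 11 of the high line were among the 2 highest of their line for each of Fibcd1, Lefty1 and Zbtb20. Amigo2 and Bok had r = -0.56 (permutation p = 0.0307, adjusted 0.502) and rho = -0.55 (p = 0.0544, adjusted 0.503), with -0.68 and -0.65 in the high and low lines and -0.66 without the 2 farthest arrays. With each array centred on its median this r turned to 0.19. Pcp4 and Amigo2 were under an unadjusted 0.05 for rho alone (rho = 0.68, permutation p = 0.0264, adjusted 0.470). Their r was 0.62 (permutation p = 0.0502, adjusted 0.502), with 0.75 in the high line and 0.38 in the low line. It was 0.45 without the 2 arrays farthest from the Pcp4 median.

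Probe sets of 1 gene were compared in the same way. In hippocampus the 9 Zbtb20 probe sets had a median r of 0.32 among themselves, from -0.31 to 0.78, with 25 of 36 pairs positive. In amygdala the median was 0.21, with 24 of 36 positive. The Pou3f1 probe sets correlated at 0.52 in hippocampus and -0.08 in amygdala, where the dimmer read 3.36 to 37.9. Those of Amigo2 correlated at 0.27 and -0.73, with 2.70 to 41.9 in hippocampus and 1.81 to 43.0 in amygdala on the dimmer. At such low signals an r says little about the transcript.

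The named genes most like each member over the 12 hippocampus arrays were sought among 7461 probe sets with a mean of at least 8 on the log2 scale, and are a description of these arrays. Ebpl followed Amigo2 most closely, with r = 0.94, and Tenm2 had 0.93 with it. Naa25 and Kcnk2, a potassium channel gene, had 0.92 and 0.91 with Pou3f1. Scn2b, a sodium channel subunit gene, had 0.92 with Zbtb20, and the transcription factor gene Nfib 0.88. Stum had 0.90 with Fibcd1 and Babam1 0.90 with Pcp4. For the other 5 members the highest r was 0.87 for Mmd with Bok, 0.87 for Cyp51 with Lefty1, 0.86 for Smim14 with Spink8, 0.86 for Ehd1 with Rgs14 and 0.85 for Ttc13 with Wfs1. Members were not among the candidates. All of these r share the same 12 arrays and their scaling. Taking the highest of 7461 on 12 arrays gives a high r even among unrelated genes. How high it would be by chance was not tested.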

How the data were processed

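The values are the linear signal intensities that the authors deposited, 1 per probe set and array. How signals were computed is not given in the sources used here. Each array's mean without its highest and lowest 2% of values was 149.96. After removal of 64 controls, 45037 probe sets were tested. Of these 34945 carry 1 gene symbol, 932 several and 9160 none. For 34741 of those with 1 symbol the Entrez identifier was found in RefSeq, and RefSeq's symbol was used, whether changed or not. Columns of values left unmapped numbered 0. Arrays give no counts, so precision rests on the number of arrays.

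Signals were tested as log2(value + 16) by moderated linear models (limma 3.58.1, R 4.3.3). The tissue difference and the difference of the line effect came from 4 group means over 24 arrays, and each line difference from the 12 arrays of its tissue. The probe set of highest mean stood for a gene where a value is given by gene. Correlations used 100000 permutations within lines, and 20000 under alternative settings, where the amygdala p values were left as they were. The fits and the correlation test were tested on simulated data. All 10 members are named. Other field genes named are, except for Calb1, among the 4 of lowest p in their list and comparison, and not all of those are named. Like genes are named up to 3 per member. The members and lists were chosen with earlier results of these data known; the amygdala markers, Calb1 in the tissue comparison and the correlated pairs described singly were picked after their values were seen. Alternatives were other offsets (1 and 64), a filter on the lowest 40% of probe sets, quantile normalization, median centring, an intensity trend, each line alone, a replicate block and leaving out arrays. Promoter sequences are RefSeq's; the values file names no build.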

Additional observations from a re-analysis of the deposited data

Results flagged for a closer look

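Among 80 groups of 6 arrays (20 probe sets in 4 groups), 4 had an array whose gap to the nearest other exceeded Dixon's 95% critical share of the group's range, where chance gives about 1 in 20. For Lefty1, array 1 of the low line in amygdala read 5.3651 on the log2 scale (signal 25.2), the others 4.55 to 4.63. For the brighter Amigo2 probe set, array 5 of the low line in hippocampus read 6.3469, the others 6.73 to 6.87. For the dimmer Amigo2 probe set, array 10 of the high line in hippocampus read 5.8565, the others 4.32 to 4.82. For Rgs14, array 9 of the high line in hippocampus read 8.9444, the others 9.19 to 9.32.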

How the results depend on the processing

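All 64 counts of calls under alternative settings equalled those reported: 19 of 20 probe sets between the tissues (19 of 19 with the filter, which leaves out the dimmer Amigo2 probe set), 0 between the lines in hippocampus, 0 in amygdala, 0 for the difference of the line effect and 0 of 45 hippocampus pairs. The lowest adjusted p over the pairs ranged from 0.0945 without hippocampus array 7 to 0.689. Of single values under alternatives, 672 kept their direction and side of the threshold, and 21, of which 0 was past a threshold, turned sign. The cause of these turns was not tested.

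Leaving out each array in turn, the line difference (high minus low) in hippocampus ran from -0.089 to 0.052 for Pou3f1 (positive without array 1), from -0.089 to 0.031 for Pcp4 (positive without 3, and at 0.02 without 12) and from -0.066 to 0.00068 for Zbtb20 (positive without 4). In amygdala it ran from -0.017 to 0.085 for Wfs1 (negative without 8), from -0.26 to 0.069 for Fibcd1 (positive without 1, 4 or 12), from -0.036 to 0.13 for Amigo2 (negative without 1, 7 or 12) and from -0.067 to 0.017 for Rgs14 (positive without 6, 10 or 12). Without amygdala arrays 7 and 8 Wfs1 was at -0.068, Pcp4 at -0.025 and Amigo2 at -0.054. As the mean of both probe sets Pou3f1 was at 0.00011 in hippocampus. Between the tissues the dimmer Amigo2 probe set was at -0.017 with quantile normalization and at -0.030 without hippocampus array 7 and amygdala arrays 7 and 8. The r of Amigo2 and Bok was 0.19 with median centring.

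Arrays with the same number in both tissues gave no sign of pairing: their deviations correlated between -0.05 and 0.05. Of these correlations 0 of 12 were over 0.1, and 2 of 12 arrays correlated best with their own number. These values cannot decide whether such arrays came from the same mouse, because deviations in different tissues of a mouse need not correlate. With the number as a replicate block, 19 probe sets were called between the tissues (fixed block) and 0 for the difference of the line effect (random block, consensus correlation 0.0067). Signal over background limits Lefty1, Fibcd1, the dimmer Pou3f1 probe set and Amigo2, whose folds depend on the offset.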
